A study of Mus musculus with 4 samples.

Results

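The genes described here are 8 genes of fatty acid oxidation and ketone body formation, Cpt1a, Cpt2, Acadm, Acadl, Acadvl, Hadha, Ehhadh and Bdh1, out of 36161 gene names on the array. They were chosen by name, as the rows of the deposited spot files that carry these symbols and are not control spots, with all 12 of their probes. RNA from the liver of mice with microsomia (M), a low weight at birth, and of controls (C) had been labelled with Cy3 and hybridized to a 1-colour Agilent array of probes of 60 bases, to see how the liver of mice that are small at birth without a genetic cause differs from that of their normal-sized counterparts. The 4 groups, with 1 array in each, were control (CF) and microsomic (MF) females and control (CM) and microsomic (MM) males. All 4 carry the labels C57BL/6J, whole liver and embryonic day 20, with no allele or agent given for any of them. The published methods describe newborn C57BL/6 N mice, littermate controls on a standard diet and replicate experiments, and whether the RNA on an array came from a pool of animals is not given in the sources used here.

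Fatty acids reach the mitochondrial matrix as carnitine esters. Cpt1a forms the ester at the outer membrane and is the controlled step in the liver, and Cpt2 turns it back to acyl-CoA at the inner membrane. Acadvl, Acadl and Acadm then start each round of β-oxidation on very long, long and medium chains, and Hadha, the α subunit of the trifunctional protein, carries out later steps of the round. Ehhadh performs the corresponding steps in the peroxisome, and Bdh1 interconverts acetoacetate and β-hydroxybutyrate, the ketone body that the newborn liver exports when milk fat becomes the main fuel.

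Values are processed signals on the log2 scale after subtraction of each array's 75th percentile, so that 0 is the level of that percentile, and a difference counts as higher or lower when it passes 1.5-fold. Each gene was read from its brightest probe free of outlier flags. There are no replicate arrays, so a pair of arrays gives neither a p-value nor an error between animals, and the small number of arrays limits the precision of every value. The only measured error is technical. Repeated spots of a probe within an array had a median SD of 0.24 on CF, 0.23 on MF, 0.26 on CM and 0.18 on MM, over 238 probes with repeated spots, and the same spots gave a median SD of 0.30 for the difference MF minus CF and 0.33 for MM minus CM. Signals of different probes are not on a common scale and are not set against each other. In whole liver, fewer cells of a type and less RNA per cell cannot be told apart.

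All 12 probes were well above background on the 4 arrays and none was saturated. The arrays shared 1 slide, with both M arrays in the same column and both C arrays in another, so that M or C and the array column cannot be told apart. Both female arrays lay in the same row and both male arrays in another, so that sex and the array row cannot be told apart either. The markers of hepatocytes were well above background on every array in 12 of 12 genes, with a summed signal of 5231 to 8010 times the 75th percentile, lowest on MM. Markers of other tissues differed between the arrays. The 10 heart muscle markers summed to 226 on CF and to 1.05, 1.16 and 3.77 on MF, MM and CM. Of the 10, 9 were lower in MF vs CF, where 21% of all genes were. In MM vs CM, 6 were lower and 1 higher (median -1.99), where 23.1% and 17.7% of all genes were. The sums were, for the 10 markers of the intestinal epithelium, 267 on MF and 129 to 202 on the others, and for the 12 markers of neutrophils and macrophages, 1967 on MF and 950 to 1301 on the others. The intestinal sum understates the difference of most of its markers. Of the 10, 6 were higher and 0 lower in MF vs CF (median 3.77), where 19.9% and 21% of all genes were. In MM vs CM, 2 were higher and 3 lower (median -0.20), where 17.7% and 23.1% were. Of the 12 markers of neutrophils and macrophages, 11 were higher and 0 lower in MF vs CF (median 0.93). In MM vs CM, 1 of these was higher and 3 lower (median 0.00). The shares of all genes are the same as for the intestinal markers. The part of these tissues in the values below was not tested.

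The sequences shown are the first 30 bases of the 60-base probes of Cpt1a, Cpt2 and Bdh1, the genes with several probes, whose agreement bears on the comparisons. Capitals mark windows of 5 bases that hold no A or G and 3 or more C, a composition for which a trend across the array was examined.
Cpt1a brighter probe: tcttaggactacttgctaaCCTCTgttact
Cpt1a dimmer probe: acagTCCCCCgaagtcttttgaatcggctc
Cpt2 brighter probe: gggttggaaagctaactcagctgtatttat
Cpt2 dimmer probe: attgtgaaTCCCTCagaaatccaggcacat
Bdh1 brightest probe: tgggtggccctaaacctcagggccaatatg
Bdh1 second probe: gtttaccttttgattagctgttgaggatta
Bdh1 dimmest probe: tggtcaCCTCTtctttgtattgggaacttc
On mm9, the build of the array annotation, the Cpt1a probes lie at chr19:3385374-3385433 (brighter) and chr19:3384060-3384119 on the plus strand, and the Cpt2 probes at chr4:107576591-107576650 (brighter) and chr4:107580325-107580384 on the minus strand. The Bdh1 probes lie on the plus strand at chr16:31457378-31457437 (brightest), chr16:31457249-31457308 (second) and chr16:31458195-31458254 (dimmest). The exon or UTR that holds each probe was not analysed here.

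Cpt1a was lower in microsomic females than on any other array. Its brighter probe, printed at 10 spots, read 5.53 on CF, 3.77 on MF, 5.04 on CM and 5.43 on MM. MF stood below the other 3 arrays, which lay within 0.50 of each other. The difference MF minus CF was -1.76, a 3.39-fold lower signal, and 2.78% of all genes compared were at least as low. MM minus CM was 0.39, not past 1.5-fold.

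The repeated spots give the technical error of these Cpt1a levels. Over the 9 spots free of flags, the SD was 0.22 on CF, 0.13 on MF, 0.35 on CM and 0.15 on MM. The MF spots ran from 3.58 to 3.99, and the lowest spot on any other array was 4.22, on CM. The spots of MF therefore did not overlap with those of the other arrays, whereas those of CF, from 5.18 to 5.76, and MM, from 5.25 to 5.71, covered nearly the same range. Spots of an array share its RNA and are not replicates of a group.

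**Figure D1:**
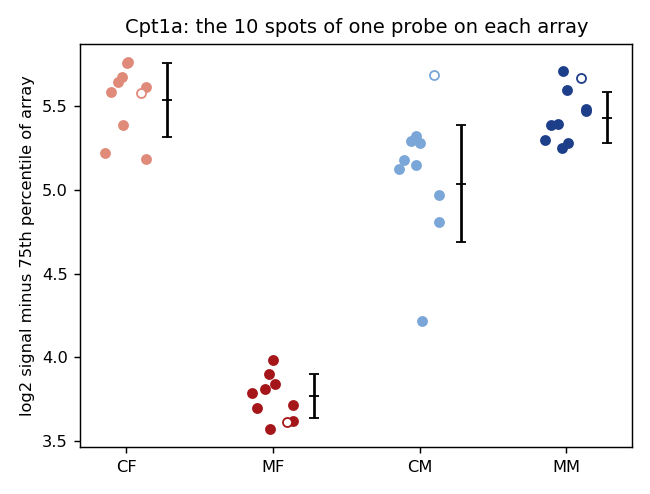
Each point is a spot of the brighter Cpt1a probe on the y axis as log2 signal minus the 75th percentile of the array, for the arrays CF, MF, CM and MM on the x axis, with the mean and SD of the 9 spots used in black and the spot left out for a flag on CM shown open on every array. The MF spots, 3.58 to 3.99, lie below every spot of the other arrays.

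The dimmer Cpt1a probe read 2.49 on CF, 0.34 on MF, 2.59 on CM and 2.54 on MM. Again MF stood alone, 4.44-fold below CF, and the other 3 arrays lay within 0.10 of each other. Both probes thus placed MF lowest, with a difference from CF of -1.76 and -2.15, while MM and CM differed by 0.39 and -0.05.

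Cpt2, the enzyme at the inner membrane, was also lowest in microsomic females. The brighter probe read 3.59 on CF, 2.72 on MF, 4.01 on CM and 4.25 on MM. MF minus CF was -0.87, a 1.82-fold lower signal, with 11.5% of all genes at least as low, and MM minus CM was 0.24. Without scaling the female difference was -0.47, below 1.5-fold. The second Cpt2 probe read 0.22 on CF, -0.39 on MF, 1.43 on CM and 1.54 on MM, with differences of -0.62 in females and 0.11 in males. CF lay below both male arrays on either probe, so that the order was MF, CF, CM, MM by both, with CM and MM closer to each other than the SD of repeated spots.

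Among the acyl-CoA dehydrogenases, the medium-chain enzyme Acadm went the other way in females. It read 5.54 on CF, 6.60 on MF, 6.01 on CM and 6.32 on MM (probe at chr3:153585670-153585729, minus strand). MF was the highest array and CF the lowest, a difference of 1.06 or 2.08-fold, with 9.79% of all genes at least as high. The difference was 0.39 with quantile normalization and 0.19 with the normexp correction in addition, below 1.5-fold. MM minus CM was 0.31.

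Acadvl, which acts on the longest chains, passed 1.5-fold in males. It read 5.68 on CF, 5.59 on MF, 5.45 on CM and 6.34 on MM (chr11:69823722-69823781, minus strand). MM stood 1.85-fold above CM, a difference of 0.89, and MF minus CF was -0.09. With the normexp correction and quantile normalization the MM minus CM difference turned to -0.11, and with the trend over the array positions removed it was 0.50, below 1.5-fold. Acadl read 3.39 on CF, 3.65 on MF, 4.03 on CM and 4.52 on MM (chr1:66877673-66877732, minus strand). Neither of its differences, 0.26 in females and 0.49 in males, passed 1.5-fold, and both male arrays lay above both female arrays.

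Hadha differed little in either sex. It read 2.30 on CF, 2.23 on MF, 2.50 on CM and 2.77 on MM (chr5:30446215-30446274, minus strand), with differences of -0.07 in females and 0.27 in males, both smaller than the SD of repeated spots.

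Ehhadh, the peroxisomal bifunctional enzyme, has a probe whose only spot carries the non-uniformity flag on CF, so that it stays out of the counts and its values are a description. It read 4.96 on CF, 4.99 on MF, 5.81 on CM and 6.13 on MM (chr16:21761914-21761973, minus strand). The female arrays differed by 0.04 and the male arrays by 0.32, and both male arrays lay above both female arrays, with a difference MM minus MF of 1.14.

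Bdh1, the ketone body dehydrogenase, was higher in microsomic mice of both sexes. The probe free of flags, the dimmest, read 0.87 on CF, 2.21 on MF, 1.53 on CM and 2.91 on MM. Both M arrays lay above both C arrays. MF was 2.54-fold above CF and MM 2.62-fold above CM, differences of 1.34 and 1.39, with 6.41% of all genes at least as high in females and 3.94% in males. The brightest probe, flagged on CM, read 5.08 on CF, 6.67 on MF, 4.97 on CM and 6.67 on MM. The second, also flagged on CM, read 4.44 on CF, 5.94 on MF, 4.53 on CM and 6.07 on MM. By the 3 probes the difference lay between 1.34 and 1.59 in females and between 1.39 and 1.70 in males, and every probe kept both M arrays above both C arrays.

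**Figure D2:**
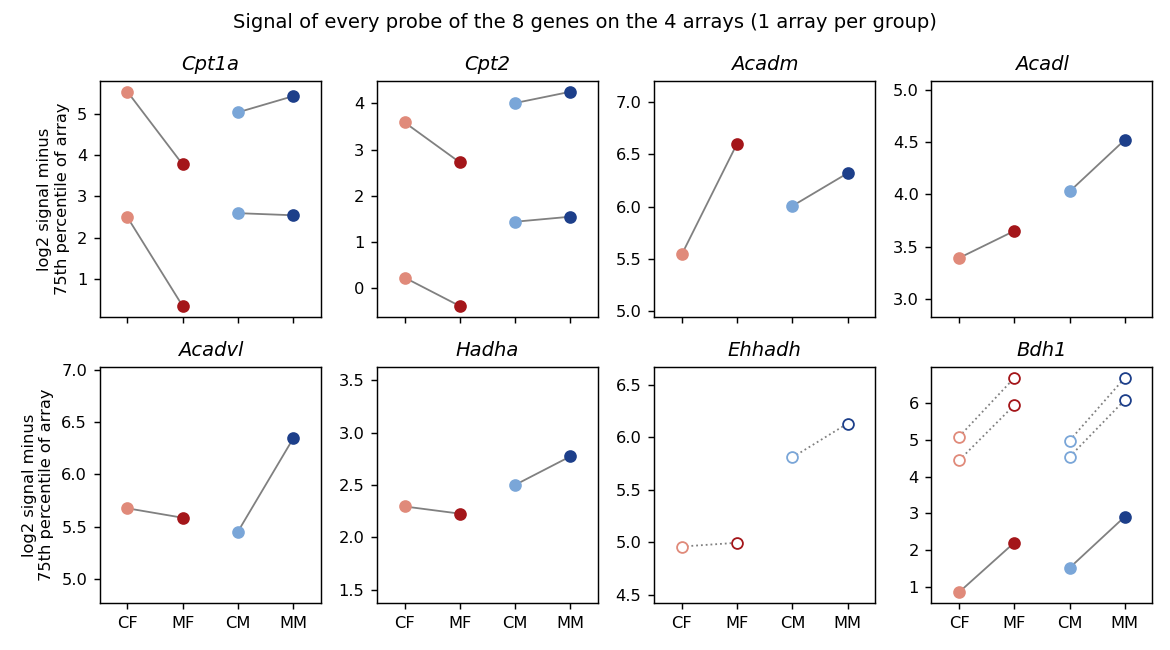
Each panel gives the log2 signal minus the 75th percentile of the array (y axis) of every probe of 1 gene on the arrays CF, MF, CM and MM, with a line joining the control and microsomic array of the same sex, and open points with dotted lines for probes left out because of an outlier flag. Both probes of Cpt1a and of Cpt2 are lowest on MF, and the 3 probes of Bdh1 are higher on both M arrays.

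Over the 7 genes measured, 2 were higher (Acadm, Bdh1) and 2 lower (Cpt1a, Cpt2) in MF vs CF, with a median of -0.07 and a range from -1.76 to 1.34. Of all 25536 genes compared, 19.9% were higher and 21% lower, with a median of -0.04. In MM vs CM, 2 were higher (Acadvl, Bdh1) and 0 lower, with a median of 0.39, and all 7 differences were above 0, from 0.24 to 1.39. There, 17.7% of 26313 genes were higher and 23.1% lower, with a median of 0.00. Bdh1 was the only one of the 7 past 1.5-fold in the same direction in both sexes, where 3.18% of 23966 genes were higher in both and 3.8% lower in both. Over all genes, 48.5% of those past 1.5-fold were higher in females and 43.4% in males, a split that became 57.1% and 61.0% after median centring and 79.7% and 78.4% with the deposited signal without scaling.

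**Figure D3:**
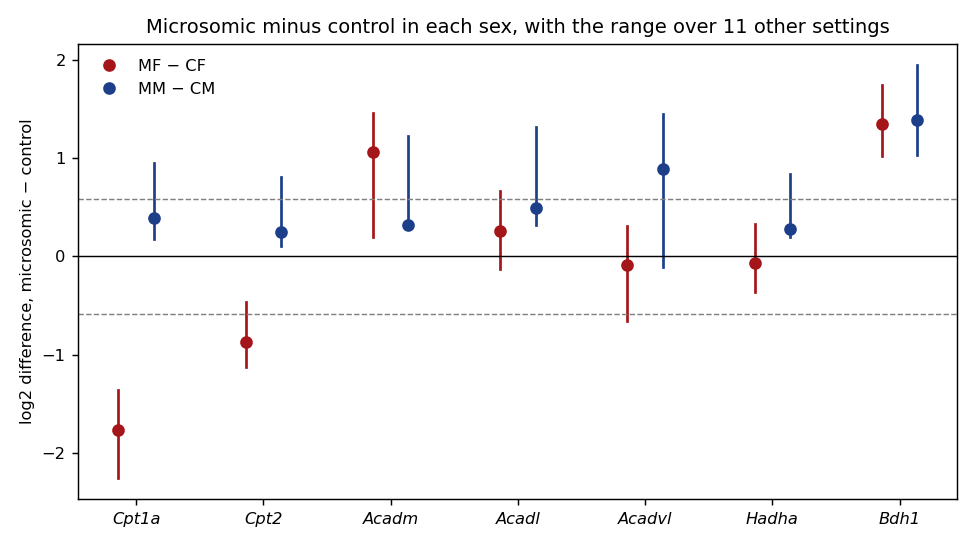
Points are the log2 differences MF minus CF and MM minus CM (y axis) of the 7 genes measured, vertical lines the lowest and highest value over the setting used and 11 other settings of the processing, and dashed lines 1.5-fold. Cpt1a and Cpt2 stay below 0 in females and Bdh1 stays above 0 in both sexes under every setting, whereas Acadvl crosses 0 in both.

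The control arrays also differed between the sexes. By the probes used, CM minus CF was positive for Cpt2 (0.42), Acadm (0.46), Acadl (0.63), Hadha (0.21) and Bdh1 (0.66) and negative for Cpt1a (-0.50) and Acadvl (-0.22). The values of Hadha and Acadvl were smaller than the SD of repeated spots on CF and on CM. By other probes the difference was 0.10 for Cpt1a, 1.21 for Cpt2, and -0.11 and 0.09 for Bdh1, whose brighter probes are flagged on CM. MM minus MF reached 1.66 for Cpt1a, 1.53 for Cpt2, 0.87 for Acadl, 0.76 for Acadvl, 0.70 for Bdh1 and 0.55 for Hadha, and was -0.28 for Acadm. By other probes MM minus MF was 2.20 for Cpt1a, 1.94 for Cpt2, and 0.001 and 0.14 for Bdh1. MM was the highest of the 4 arrays for 5 of the 7 genes, compared with 24.1% of all genes well above background on every array. MF was the lowest for 3 of them (Cpt1a, Cpt2 and Hadha), compared with 34.2% of all genes.

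A fit of limma to the 4 arrays, with condition and sex in the model and 1 residual degree of freedom, takes the sexes as repeats of the same comparison. No gene had an adjusted p under 0.05 (0 of 19298, 0%), the smallest Benjamini-Hochberg adjusted p was 0.966, and 851 had an unadjusted p under 0.05. The estimate for Bdh1 was 1.37 with an SE of 0.41, an unadjusted p of 0.0118 and a Benjamini-Hochberg adjusted p of 0.995. For Cpt1a the estimate was -0.69 with an SE of 0.57, since the sexes differed. The other 5 genes had estimates between -0.31 (Cpt2) and 0.68 (Acadm), each with an SE of 0.41 to 0.46.

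Cpt1a and Bdh1, with the lowest difference in females and the highest in both sexes, are shown with their promoters, as RefSeq windows on GRCm38.p6 of 250 bases before to 50 after the start. Capitals mark AGGTCA, a half-site of nuclear receptors such as PPARα, and GGGCGG, the GC box, on either strand.
Cpt1a, chr19:3323051-3323350, plus strand: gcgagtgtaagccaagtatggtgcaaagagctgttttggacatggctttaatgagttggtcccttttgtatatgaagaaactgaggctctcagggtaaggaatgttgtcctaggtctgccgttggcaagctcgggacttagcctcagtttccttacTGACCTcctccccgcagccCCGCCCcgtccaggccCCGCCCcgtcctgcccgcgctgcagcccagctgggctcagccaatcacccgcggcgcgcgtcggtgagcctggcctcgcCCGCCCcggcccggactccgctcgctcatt
Bdh1, start upstream, chr16:31422047-31422346, plus strand: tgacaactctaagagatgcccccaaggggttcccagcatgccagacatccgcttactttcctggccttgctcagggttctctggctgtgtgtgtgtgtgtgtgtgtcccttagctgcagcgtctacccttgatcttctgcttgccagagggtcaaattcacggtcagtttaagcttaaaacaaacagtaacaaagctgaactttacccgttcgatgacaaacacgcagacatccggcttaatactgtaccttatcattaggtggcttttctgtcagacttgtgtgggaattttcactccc
Bdh1, start downstream, chr16:31428503-31428802, plus strand: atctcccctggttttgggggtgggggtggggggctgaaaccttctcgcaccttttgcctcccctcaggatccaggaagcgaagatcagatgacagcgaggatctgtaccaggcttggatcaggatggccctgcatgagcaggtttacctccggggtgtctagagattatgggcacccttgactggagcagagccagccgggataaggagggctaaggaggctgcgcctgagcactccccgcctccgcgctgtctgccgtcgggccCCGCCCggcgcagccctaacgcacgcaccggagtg
AGGTCA was found in the windows of 3 genes, at -94 from the start in Cpt1a, -249 in Acadm and -87 in Acadvl, thus in 3 of the 9 windows of the 8 genes, compared with 16.3% of 32851 promoter windows. GGGCGG was found in 6 of the 9 windows, compared with 35.7%. A direct repeat of AGGTCA with a single base between, in these letters alone, was in 0 of the 9 and in 0.0396% of all windows. The genes with AGGTCA in the window comprised the lowest value of the 8 in MF vs CF (Cpt1a), a value near 0 (Acadvl) and a high one (Acadm), and a match of letters is a description and not a binding site.

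The other genes of the pathway were read from 6 lists with 96 names, of which 95 have a probe and 90 a probe free of flags. In MF vs CF, 16 of 87 were higher and 26 lower, with a median of -0.19, compared with 19.9% and 21% of all genes. In MM vs CM, 32 of 88 were higher and 9 lower, with a median of 0.35, compared with 17.7% and 23.1%. In females 24 were higher and 11 lower without scaling, so that this order depended on the scaling. In males higher values outnumbered lower ones under each scaling.

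The carnitine shuttle and its regulators had mostly lower values in females. In MF vs CF, 8 of 9 genes were lower (21% of all genes) and 1 higher (19.9%), with a median of -0.84. In MM vs CM, 1 was lower (23.1% of all genes) and 2 higher (17.7%), with a median of 0.17. The values that follow are MF minus CF unless stated. Slc22a5, which takes up carnitine, was 2.67-fold lower (-1.42), and Slc25a20, which exchanges acylcarnitine for carnitine across the inner membrane, was 2.12-fold lower (-1.09). Crot and Crat, the carnitine transferases for medium and short chains, differed by -0.90 and -0.61, and the Cpt1 isoforms Cpt1b and Cpt1c by -0.60 and -0.84. The other probes of these isoforms differed in the opposite direction in females, by 0.34 for Cpt1b and 1.74 for Cpt1c. The Cpt1c probe used was dim, at -3.43 on CF and -4.27 on MF, and was not well above background on CM. Mlycd, which degrades malonyl-CoA, the inhibitor of Cpt1, was 2.05-fold lower (-1.03). Of the enzymes that make malonyl-CoA, Acacb was lower in both sexes (-0.60 and -1.13). Its other probe differed by -0.41 in females, not past 1.5-fold, and by -0.96 in males. Acaca was 5.49-fold higher in females (2.46) and 1.70-fold higher in males (0.77). The other Acaca probes lay between 1.82 and 2.23 in females and between -0.03 and 0.26 in males.

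Together with Cpt1a and Cpt2, 10 genes of the group were well above background on every array, and 8 of these were lowest on MF, also against the CM and MM arrays, while 1 (Acaca) was highest there. Over all genes 34.2% were lowest on MF, but the group is described here for its low values in MF vs CF, so that the count is a description. The count of 8 lower genes out of 9 fell to 5 after median centring or when the probes of a gene were averaged, and to 3 with the deposited signal without scaling, with the median between -0.85 and -0.44 over the settings. Cpt1b, Crat and Acacb lay just past 1.5-fold, at -0.60 to -0.61. Cpt1b and Acacb are known from muscle, and the heart muscle markers were high on CF. Acacb read 3.26 on CF, 2.66 on MF, 2.32 on CM and 1.18 on MM. Cpt1b read 0.23 on CF, -0.36 on MF, 0.07 on CM and 0.16 on MM. The part of heart muscle in these values was not tested.

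**Figure D4:**
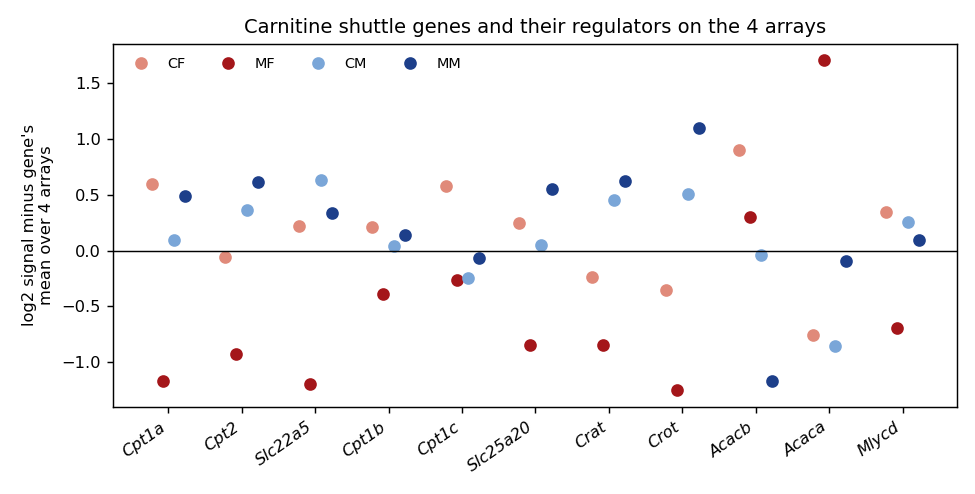
Points are the log2 signal of each carnitine shuttle gene and of Cpt1a and Cpt2 on the arrays CF, MF, CM and MM (y axis, minus the mean of the gene over the 4 arrays). MF is the lowest array for 8 of the 10 genes well above background throughout and the highest for Acaca.

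For fatty acid uptake and activation the counts depended on the scaling in females. In MF vs CF, 6 of 11 genes were lower and 2 higher (median -0.61), compared with 21% and 19.9% of all genes, and in MM vs CM, 1 of 12 was lower and 5 higher (median 0.39), compared with 23.1% and 17.7%. The 6 lower genes became 3 after median centring and 1, with 3 higher, without scaling. Cd36, a fatty acid translocase, and the hepatic transporters Slc27a2 and Slc27a5 differed by -0.61, -0.76 and -0.67 in females and by 0.38, 0.82 and 0.41 in males, and the other Slc27a5 probe by 0.00 in females and 0.32 in males. The acyl-CoA synthetases Acsl3 and Acsl4 had the largest differences in females, 1.47 and -1.09, and the medium-chain synthetases Acsm5 and Acsm3 in males, 1.60 and 1.43. The other Acsm3 probes differed by 0.025 and 0.067 in males. Acsl1, the main long-chain synthetase of liver, differed by -0.03 and 0.05.

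The list of mitochondrial β-oxidation had mostly higher values in microsomic males. Of 21 genes, 11 were higher and 1 lower in MM vs CM (median 0.67), where 17.7% of all genes were higher and 23.1% lower. The list also holds enzymes outside the round itself. Of these, Pcca (1.01), Mcee (0.67) and Mut (1.17) of propionyl-CoA conversion, Acad8 (0.67) of amino acid breakdown and the thioesterase Acot2 (1.05) were among the 11. Pccb (-0.18) and Acadsb (0.11) did not pass 1.5-fold. In MF vs CF, 3 of the 21 genes were higher and 2 lower (median -0.11), where 19.9% and 21% of all genes were. The 2 lower became 7 with quantile normalization (median -0.41) and 9 with the normexp correction in addition (median -0.52). Hadh, the short-chain hydroxyacyl-CoA dehydrogenase, was 2.87-fold higher in males (1.52) and differed by 0.57 in females. Hadhb, the β subunit that pairs with Hadha, was 2.70-fold higher in males (1.43) and differed by -0.18 in females, whereas Hadha itself differed by 0.27 and -0.07. Acads, the short-chain dehydrogenase, was higher in both sexes (0.87 and 1.10). Acaa2, the thiolase of the last step, was 2.48-fold higher in females (1.31) and differed by 0.35 in males, as Acadm did. Acad10 had the largest difference of the pathway, 4.06 in females and -1.19 in males, from 1 probe that read 7.77 on MF and 2.95 to 4.14 on the other arrays.

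MM was the highest of the 4 arrays for 17 of the 21 mitochondrial genes, compared with 24.1% of all genes. The list is described here for its high values in MM vs CM, so that the count is a description. The count was between 12 and 18 over the other settings. It was 18 without scaling, where 45.1% of all genes were highest on MM. On the same array the summed hepatocyte markers were lowest. Of the 12 markers, 6 were lower and 1 (Hnf4a, 1.01) higher in MM vs CM, with a median of -0.59, where 23.1% and 17.7% of all genes were. The part of this in the mitochondrial values was not tested.

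Peroxisomal β-oxidation showed 3 genes higher and 3 lower of 16 in MF vs CF (median 0.07) near the shares of all genes of 19.9% and 21%, and 7 higher and 0 lower in MM vs CM (median 0.52), compared with 17.7% and 23.1%. The 3 lower genes in females became 5 with quantile normalization and 7 with the normexp correction in addition, which turned the median to -0.24. Acaa1b, a peroxisomal thiolase, was 3.23-fold higher in females (1.69) and 2.36-fold higher in males (1.24). Pecr, the peroxisomal enoyl-CoA reductase, and Scp2, the sterol carrier protein with a thiolase form, were also higher in both sexes by their brightest probes, Pecr by 1.32 and 1.23 and Scp2 by 0.90 and 0.77, but their other probes read -0.15 and -0.16 in females. Abcd2, a peroxisomal importer of very long chains, was 2.70-fold higher in males (1.43) and differed by 0.13 in females.

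In ketone body synthesis and use, 3 of 9 genes were higher and 2 lower in MF vs CF (median 0.29), where 19.9% and 21% of all genes were. In MM vs CM, 2 of 9 were higher and 1 lower (median 0.25), where 17.7% and 23.1% were. These are small counts not far from the shares of all genes. The median turned to -0.33 in females and -0.12 in males with the normexp correction and quantile normalization. Acat1, the thiolase that supplies acetoacetyl-CoA, differed by 0.56 and 0.91. Slc16a1, a transporter of ketone bodies and lactate, was lower in both sexes (-0.61 and -1.55). Aacs, which activates acetoacetate for lipid synthesis, was 3.61-fold higher in females (1.85) and differed by 0.50 in males, and Slc16a7, another transporter of the family, differed by -0.99 and 0.31.

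Regulators and targets of the fasting response had counts near the shares of all genes. In MF vs CF, 4 of 21 were higher and 5 lower (median -0.42), where 19.9% and 21% of all genes were, and in MM vs CM, 5 were higher and 5 lower (median 0.09), where 17.7% and 23.1% were. With the normexp correction and quantile normalization, 10 were lower and 2 higher in females. Ppara, the receptor that drives many of these genes, differed by 0.11 and 0.09 by its brightest probe, but its other probes reached 1.22 in females and -1.36 in males. Cyp4a10 and Cyp4a14, fatty acid hydroxylases known as targets of this receptor, differed by -1.08 and -1.39 in females and by 0.57 and 1.11 in males. Angptl4 and Fgf21, of the same list, had the opposite signs, with 0.78 and 0.41 in females and -1.10 and -0.98 in males. Pdk4, which spares glucose by blocking pyruvate dehydrogenase, was 1.99-fold lower in females and 3.28-fold lower in males, and Hnf4a was higher in both (0.64 and 1.01). The largest remaining differences were Ucp2 in females (1.34) and Esrra in males (-1.17).

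Across the 6 lists, 7 of the 87 genes compared in both sexes were higher in each (among them Acaca, Acads, Acaa1b, Scp2, Pecr and Hnf4a) and 3 lower in each (Acacb, Slc16a1 and Pdk4), where 3.18% and 3.8% of all genes were. By their other probes, Acaca in males and Scp2, Pecr and Acacb in females did not pass 1.5-fold in these directions, so that the counts rest on the brightest probes. Another 8 were lower in females and higher in males, compared with 4.04% of all genes, and 3 the reverse, compared with 5.81%. These contrasts between the sexes carry no test, since each group has 1 array.

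**Figure D5:**
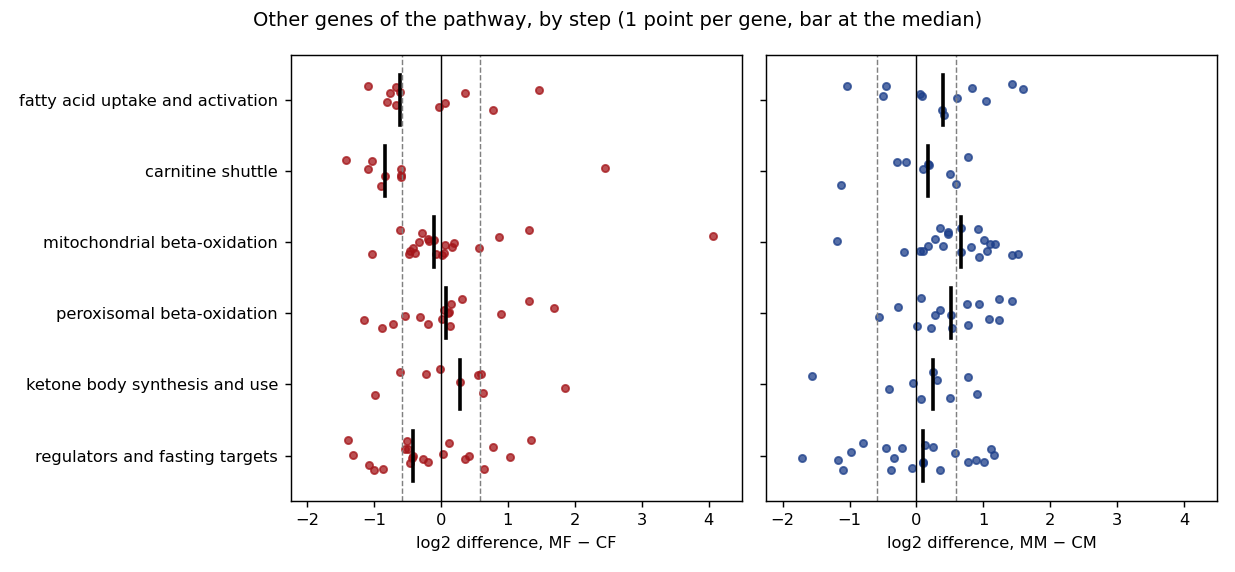
Each point is a gene of the named list, with its log2 difference MF minus CF (left) or MM minus CM (right) on the x axis, bars at the median of the list and dashed lines at 1.5-fold. The carnitine shuttle lies below 0 in females but for Acaca at 2.46, and mitochondrial β-oxidation lies mostly above 0 in males, with a median of 0.67.

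The median of the 7 genes, each centred on its own mean, was -0.15 on CF, -0.22 on MF, 0.05 on CM and 0.58 on MM. Outside the lists, the genes with the most similar values over the 4 arrays were Mrpl44, 1700029F09Rik, Ces2c, Ranbp6 and Gps1, at a root mean square distance of 0.065 to 0.070 on the log2 scale. Of 19149 genes compared, 1006 lay within 0.2. The 7 genes themselves lay between 0.13 (Hadha) and 0.61 (Cpt1a) from their median, with Hadha, Acadl and Acadvl within 0.2.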

How the data were processed

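The authors hybridized liver RNA of 4 groups to Agilent SurePrint G3 arrays, of which 1 per group is analysed here, and read the scans with Agilent Feature Extraction. Per the file headers, the processed signal that the authors deposited is a linear intensity, background-subtracted and detrended by the software and not normalized between arrays, and the accompanying value table holds the same numbers for all 62976 spots. Of 59305 non-control spots, 56.1% to 65.3% were well above background.

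Signals were transformed to log2 and reduced by the 75th percentile of the array. The 1754 spots with a non-uniformity or population outlier flag on some array were dropped throughout, spots of a probe were averaged, and a gene took the probe with the highest mean. A gene was compared between a pair of arrays when either of them was well above background. Where the other array was not, the difference was taken against a limit near the lowest signal well above background, as a lower bound. Differences past 1.5-fold were counted, without a p-value. limma 3.58.1 in R 4.3.3 was fitted with condition and sex to 19298 genes, those well above background throughout, with Benjamini-Hochberg adjustment, and was tested on simulated data.

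The 8 genes, the pathway lists, the markers and the rule for naming genes were chosen with earlier results of these data known. Named were every one of the 8 genes, pathway genes past 1.5-fold the same way in both sexes, the 2 largest differences of each list in each sex and the 5 genes of most similar values. The remaining genes named (the rest of the carnitine shuttle, Cd36, Slc27a2, Slc27a5, Acsl1, Pcca, Pccb, Mcee, Mut, Acad8, Acadsb, Acot2, Ppara, Cyp4a10, Angptl4 and Fgf21) and the counts of the lowest and highest array were chosen after their values were seen. Some genes of the lists are not reported here. The array annotation gave the probe positions, on mm9, and the 8 genes matched RefSeq (GRCm38.p6) by symbol, from which the promoters were taken. The alternatives were other scalings, removal of trends with position, GC content and C and T windows (the last chosen after seeing the data), other filters and probe choices, a 2-fold threshold and other limma models.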

Additional observations from a re-analysis of the deposited data

Results flagged for a closer look

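For 3 of the 7 genes measured the difference between microsomic and control mice had opposite signs in the 2 sexes and passed 1.5-fold in either of them. Over all genes, 19.9% were higher and 21% lower past 1.5-fold in females, and 17.7% and 23.1% in males. The share of all genes that also had opposite signs was not counted, so that the 3 genes are a description. Cpt1a differed by -1.76 in females and by 0.39 in males, Cpt2 by -0.87 and 0.24, and Acadvl by -0.090 and 0.89, on the log2 scale. The difference between the sexes was not tested, because each group has 1 array. Both probes of Cpt2 gave these signs, whereas the dimmer Cpt1a probe gave -0.05 in males. The value of Acadvl in females is smaller than the SD of repeated spots and turned to 0.31 without scaling.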

How the results depend on the processing

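The labels give no replicate numbers to pair arrays by, and the sex term of limma sets M against C within each sex. Leaving out an array leaves no comparison in that sex. Cpt1a in MF vs CF ranged from -2.26 to -1.36 over 11 other settings, Cpt2 from -1.12 to -0.47, Acadm from 0.19 to 1.46, and Bdh1 from 1.01 to 1.74 in females and from 1.03 to 1.95 in males. The deposited signal without scaling moved the median of all genes by 0.38 in MF vs CF and 0.50 in MM vs CM, centring on the median moved it by 0.18 in MM vs CM, and no filter on dim probes by -0.15 and -0.22.
Without scaling, the median of the 7 genes was 0.33 in MF vs CF, with 1 of them lower, and 0.95 in MM vs CM, with 7 higher. The pathway lists then had a median of 0.21 with 11 lower in MF vs CF, and of 0.91 with 64 higher and 4 lower in MM vs CM, and limma called 9 genes and turned Cpt2 to 0.17. With the normexp correction and quantile normalization, the median of the 7 genes in MM vs CM was 0.74 with 6 higher, Acadvl turned to -0.11 there and to -0.33 in limma, 1 gene was higher in MF vs CF (as with quantile normalization alone), and the pathway median in MF vs CF was -0.52. Of the 7 genes, 4 were higher in MM vs CM after median centring and 1 with the trend over the array positions removed, which turned Hadha to -0.067 in limma. At 2-fold, 1 of the 7 was lower in MF vs CF and 1 higher in MM vs CM, 9 pathway genes were higher and 9 lower in MF vs CF, and 16 were higher in MM vs CM. By the threshold of the methods, unadjusted, 163 genes passed limma, and 0 genes had an adjusted p under 0.05 under any of the other limma settings run. The cause of these shifts was not tested. Signals near background limited the genes compared, and no array can be checked against a replicate.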
